A study of Mus musculus with 29 samples.

Results

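Notch signalling was followed through 10 genes in RNA from the mouse aortic arch. They were the receptors Notch1, Notch2 and Notch3, the ligands Jag1 and Jag2, and the target genes Hey1, Hey2, Heyl, Hes1 and Nrarp. The genes were chosen by name, as receptors, ligands and targets of the pathway in smooth muscle. The rule uses no measured value, but earlier results of these data were known when the genes were chosen. Each symbol matched 1 of the 56748 genes in the count table. All 10 genes passed the filter on low counts (over 10 reads in at least 11 of the 28 mice), which 12353 genes passed.

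The study asked how the aorta ages in DNA repair-deficient mice and what dietary restriction (DR) changes. Ercc1 encodes a subunit of a DNA repair nuclease, and Ercc1Δ/- mice, a model of accelerated aging, carry a null allele and the Δ allele in all tissues rather than in smooth muscle alone. All mice were F1 hybrids of C57BL6J and FVB, and wildtype (WT) littermates were the controls. The groups fed ad libitum (AL) held 5 WT and 5 Ercc1Δ/- mice of 6 weeks and 4 WT and 4 Ercc1Δ/- mice of 22 weeks. The DR groups held 5 WT and 5 Ercc1Δ/- mice of 22 weeks, whose food was cut by 10% from week 7 and by 30% from week 9. Males and females were in every group, with 17 males and 11 females in all. A further WT mouse of 22 weeks on AL, mouse 003, had 400410 counts and was left out, as the study's methods did. Each sample was 1 mouse, and mice are named here by their sample number. Where values of single mice are listed, they stand in the order of these numbers within a group.

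Notch receptors and their Jagged ligands are membrane proteins of neighbouring cells. Ligand binding leads to cleavage of the receptor, and its intracellular part enters the nucleus, where it joins the DNA-binding protein RBPJ and Mastermind proteins and turns on target genes. In arteries, Jagged1 on endothelium and smooth muscle acts on Notch2 and Notch3 in smooth muscle, a signal known for its part in the contractile state of these cells. Notch1 and Notch4 are known mainly as endothelial receptors.

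Of the 10 genes, Notch1 was the only one called in any of the 9 comparisons made. It was 1.37-fold higher in Ercc1Δ/- than in WT mice on DR, where 13.0% of all tested genes were called. The call was lost without any of 7 of the 10 mice on DR, without the sex term and with all 6 groups in the fit. A call required an adjusted p up to 0.05 (edgeR quasi-likelihood F test, Benjamini-Hochberg over the 12353 genes) and a change of at least 1.2-fold. The smooth muscle genes Acta2 and Myh11 were called lower in Ercc1Δ/- mice at 22 weeks on both diets, as were 6.16% of all tested genes on AL and 7.03% on DR. None of the 10 genes was called lower in any comparison, which for 10 genes is near those shares. Notch2 was called lower in Ercc1Δ/- mice at 22 weeks on both diets under some other settings, among them no filter on low counts. In RNA of whole tissue, fewer cells of a type and less RNA per cell cannot be told apart.

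The samples held 921167 to 9616382 counts on genes, with medians of 6212607 and 5557760 in the WT groups of 22 weeks on AL and DR but 2392576 and 1576566 in the Ercc1Δ/- groups. The 10 smooth muscle markers had summed normalized counts of 66988 to 169649 in each sample, against 1955 to 6556 for the 10 endothelial markers, and none of the smooth muscle markers was at 0 in any sample. A normalized count is the count scaled to a library of 3683502 counts, the mean of the 28 samples over the tested genes. Ercc1 itself had 52.2 to 136 normalized counts in the WT mice and 28.2 to 78.7 in the Ercc1Δ/- mice, and its genotype difference was called at 6 weeks, at 22 weeks on AL and on DR (adjusted p from edgeR of 3.2e-04, 0.0027 and 5.7e-04). Xist and 4 Y chromosome genes matched the sex label of all 28 mice. Levels of the 10 Notch genes are drawn per mouse in the plot by group.

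**Figure D1:**
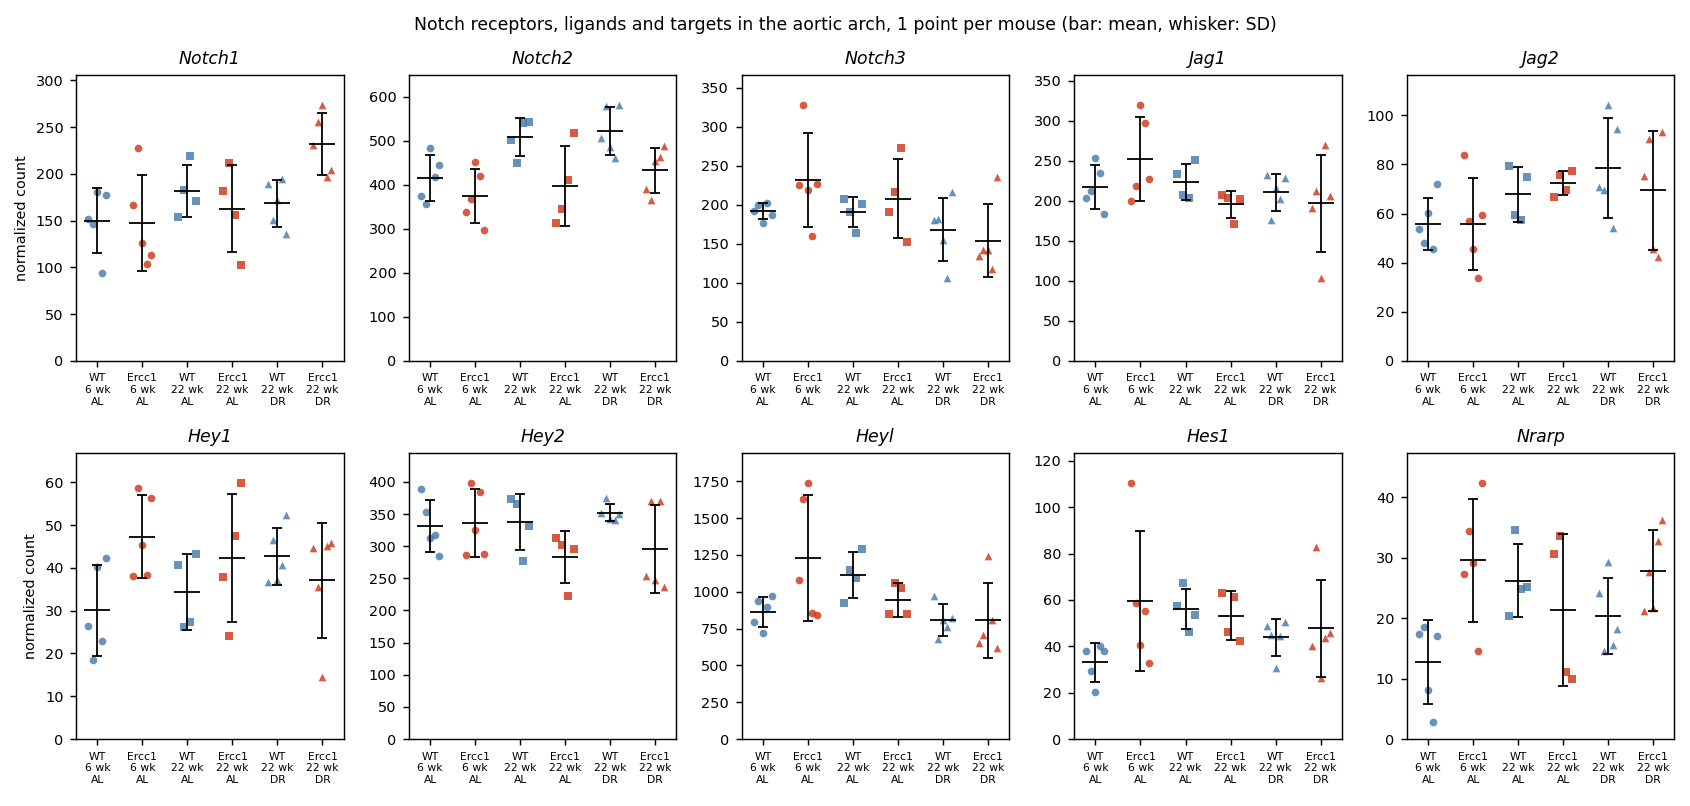
Normalized counts (vertical axis, from 0) of the 10 Notch genes in the 6 groups (horizontal axis), 1 point per mouse, blue for WT and red for Ercc1Δ/-, with circles for 6 weeks AL, squares for 22 weeks AL and triangles for 22 weeks DR, and with the mean (bar) and SD (whisker) of each group. The 5 Ercc1Δ/- mice on DR have 196 to 273 normalized counts of Notch1, all above the 5 WT mice on DR with 136 to 194, and for the other 9 genes the genotypes overlap at each age and diet.

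Per kilobase of annotated exon, the targets of the Hey family stood highest. The median over the 28 samples was 165 normalized counts per kb for Heyl and 66.9 for Hey2, both repressors of the basic helix-loop-helix type. The receptors Notch2, Notch3 and Notch1 followed with 39.9, 21.1 and 12.3 per kb, the ligands Jag1 and Jag2 had 35.1 and 9.62, and Hes1, Nrarp and Hey1 had 13.4, 8.84 and 8.43. Heyl exceeded Hey2, and Hey2 exceeded Notch2, in 28 of 28 samples, and Jag1 exceeded Notch3 in 27 and Notch3 exceeded Hes1 in 25. Other neighbours in this order were not separated beyond their spread, with Notch2 above Jag1 in 16 of 28 samples, Hes1 above Notch1 in 17, Notch1 above Jag2 in 22, Jag2 above Nrarp in 16 and Nrarp above Hey1 in 17. The study counted reads over whole gene bodies, introns included. Per kb of gene span, Heyl (53.5) and Hey2 (31.3) were again highest, but Notch2 stood at rank 8 of 10 with 3.28, Notch1 at rank 10 with 2.97 and Hes1 at rank 3 with 10.1. Among the 45 pairs of the 10 genes, Spearman's rho of log2 normalized counts across the 28 samples ran from -0.34 (Notch2 and Nrarp) to 0.48 (Notch1 and Nrarp), a description in which all genes share their libraries.

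Notch1 lies on the minus strand at chr2:26347915-26406675 of GRCm39. On DR, the Ercc1Δ/- mice had 231, 256, 273, 196 and 204 normalized counts and the WT mice 189, 151, 173, 194 and 136. Every Ercc1Δ/- mouse thus stood above every WT mouse, a separation that 8.27% of all tested genes showed in this comparison, 3.08% in this direction. The group means were 232 ± 33.0 (SD, n = 5) and 168 ± 24.9 (SD, n = 5), and the log2 fold change was 0.45 (SE 0.14, edgeR adjusted p = 0.038), a 1.37-fold difference with a 95% confidence interval of 1.11 to 1.68. Notch1 was the only Notch gene of the 10 called here, beside 13.0% of all tested genes. Behind these values stood 65 to 144 raw counts in the Ercc1Δ/- mice. The call was lost when any of the mice 006, 010, 014, 016, 017, 028 and 029 was left out, with log2 fold changes of 0.36 to 0.48 and adjusted p of up to 0.13, and also without the sex term (adjusted p = 0.053) and with all 6 groups in the fit (adjusted p = 0.095).

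Markers of endothelium, the cell layer in which Notch1 is mainly known, were also higher in Ercc1Δ/- than in WT mice on DR. Of the 10 endothelial markers, 5 were called higher in Ercc1Δ/- mice on DR, beside 5.97% of all tested genes. They were Cdh5, Cldn5, Esam, Pecam1 and Tie1, with log2 fold changes of 0.57 to 1.04. In the order of the mice, the summed normalized counts of the 10 markers were 3683, 5093, 5139, 6002 and 3858 in the Ercc1Δ/- mice. In the WT mice they were 3642, 3019, 3410, 3905 and 1955, and none of the 10 was called lower in Ercc1Δ/- mice. Mouse 022 had the highest sum but the lowest Notch1 of the Ercc1Δ/- mice on DR. Among the WT mice on DR, mouse 021 was highest and mouse 028 lowest in both. Per 1000 of these marker counts, Notch1 had 32.7 to 62.6 normalized counts in Ercc1Δ/- mice and 49.7 to 69.4 in WT mice on DR. On that scale, chosen after seeing the data, the groups overlapped and the mean was lower in the Ercc1Δ/- mice (50.3 ± 10.9, SD, n = 5) than in the WT mice (54.3 ± 8.46, SD, n = 5). The denominator of this ratio holds the 5 markers that were themselves called higher in this comparison, and the ratio was not tested. At 22 weeks on AL, where Notch1 overlapped between the genotypes, the summed markers overlapped as well, with 2821 to 4571 in Ercc1Δ/- and 3420 to 4899 in WT mice, although 1 of the 10, Emcn, was called higher in Ercc1Δ/- mice (log2 fold change 0.97, edgeR adjusted p = 0.026). The part of endothelial cells in the Notch1 values was not tested.

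**Figure D2:**
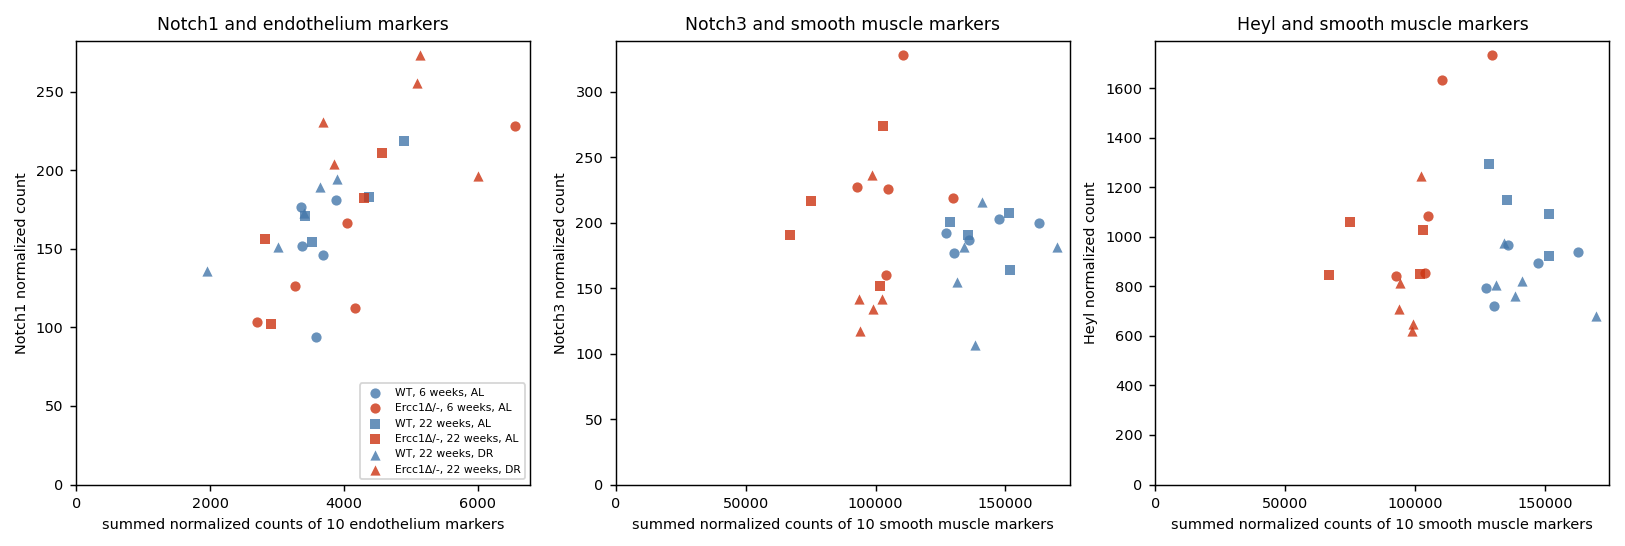
Normalized counts of Notch1 against the summed normalized counts of 10 endothelial markers (left), and of Notch3 (middle) and Heyl (right) against those of 10 smooth muscle markers, 1 point per mouse, with colours for genotype and shapes for age and diet. The Ercc1Δ/- mice on DR have 3683 to 6002 endothelial marker counts and the WT mice on DR 1955 to 3905, and the Ercc1Δ/- mice (66988 to 129739 smooth muscle marker counts) lie mostly to the left of the WT mice (127110 to 169649) at Notch3 and Heyl counts that overlap.

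On AL, the genotypes overlapped in Notch1 at both ages. At 22 weeks the Ercc1Δ/- mice had 182, 211, 156 and 102 normalized counts and the WT mice 154, 183, 219 and 171 (log2 fold change -0.24, 95% confidence interval -0.70 to 0.21). At 6 weeks the values were 167, 228, 126, 104 and 113 in Ercc1Δ/- mice and 152, 146, 181, 94.2 and 177 in WT mice (log2 fold change -0.02, 95% confidence interval -0.42 to 0.38). The test of whether the genotype difference changed with diet was not passed (log2 difference 0.63, SE 0.22, edgeR adjusted p = 0.37). Between DR and AL within the Ercc1Δ/- mice, Notch1 had a log2 fold change of 0.50 (SE 0.16), which was not called (edgeR adjusted p = 0.12). These comparisons share the mice on DR or the Ercc1Δ/- mice on AL, so their values are not independent of each other.

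Notch2 and Notch3 are the receptors known from smooth muscle. Notch2, on the plus strand at chr3:97920800-98057677, was measured at 313, 346, 410.2 and 518 normalized counts in Ercc1Δ/- mice and at 501, 449, 541 and 541 in WT mice at 22 weeks on AL. Of the 4 Ercc1Δ/- mice 3 lay below all WT mice, and mouse 026 lay among them. The log2 fold change of -0.37 (SE 0.14) did not pass the threshold (edgeR adjusted p = 0.10). On DR the values were 391, 366, 453, 462 and 488 in Ercc1Δ/- mice and 507, 579, 484, 462 and 580.3 in WT mice, with 3 Ercc1Δ/- mice below all WT mice. There the log2 fold change was -0.26 (SE 0.10, edgeR adjusted p = 0.077). Notch2 passed the threshold at 22 weeks on AL without mouse 026 (-0.55, adjusted p = 0.019) and without a filter on low counts (-0.44, adjusted p = 0.045), and on DR without mouse 022 (-0.35, adjusted p = 0.019), without the filter (-0.31, adjusted p = 0.045) and with all samples thinned to 921167 counts (-0.37, adjusted p = 0.031).

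Notch3, on the minus strand at chr17:32339794-32385893, is the receptor most closely tied to arterial smooth muscle. It had 190.3, 216, 273 and 152 normalized counts in Ercc1Δ/- mice and 208, 190.2, 164 and 201 in WT mice at 22 weeks on AL. The groups overlapped, and the log2 fold change was 0.11 with a 95% confidence interval of -0.25 to 0.47. On DR its values were 134, 142, 142, 117 and 236 in Ercc1Δ/- mice and 181, 181, 155, 107 and 216 in WT mice (log2 fold change -0.13, 95% confidence interval -0.50 to 0.24). At 6 weeks 4 of the 5 Ercc1Δ/- mice had more Notch3 than every WT mouse, with 225, 328, 219, 159.8 and 227 against 192, 199.7, 177, 203 and 187. This difference was not called (log2 fold change 0.29, SE 0.15, edgeR adjusted p = 0.46), and without mouse 008 it was 0.08, adjusted p = 0.85.

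Neither ligand was called in any comparison. Jag1, on the minus strand at chr2:136923373-136958693, had 103 to 319 normalized counts over the 28 mice, with group means of 217 ± 27.1 (SD, n = 5) and 252 ± 52.8 (SD, n = 5) in WT and Ercc1Δ/- mice of 6 weeks and 223 ± 22.3 (SD, n = 4) and 195 ± 16.8 (SD, n = 4) at 22 weeks on AL. Of its differences between groups that between 22 and 6 weeks in Ercc1Δ/- mice was largest, with a log2 fold change of -0.36 (SE 0.14, edgeR adjusted p = 0.15). Jag2, on the minus strand at chr12:112871421-112893437, had 33.8 to 104 normalized counts. Its group means were 55.9 ± 10.6 (SD, n = 5) and 55.8 ± 18.7 (SD, n = 5) at 6 weeks and 67.8 ± 11.1 (SD, n = 4) and 72.3 ± 4.90 (SD, n = 4) at 22 weeks on AL. On DR the genotype differences of Jag1 and Jag2 had 95% confidence intervals on the log2 scale of -0.41 to 0.21 and -0.70 to 0.16.

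The targets are genes at which RBPJ is known to act, and the sequence before the start of 3 of them is given here to show where its core letters occur. TGGGAA, the core of the RBPJ site, was searched on both strands in the 250 bases before the annotated start of the canonical transcript in GRCm39 (GENCODE annotation). It was found before 2 of the 9 members whose windows are reported here, Hes1 and Hey2, and before 22.7% of 21770 protein-coding genes. The longer GTGGGAA, which contains the core, was found before both as well and before 5.48% of all. Hes1 held 2 matches on its own strand, which begin 49 and 35 bases before the start, and 2 or more matches occurred before 3.06% of all genes. Hey2 held 1 match, on the opposite strand, whose letters read TTCCCA and begin 158 bases before the start. A match is a description of letters and no evidence of binding. The sequences read 5′ to 3′ on the strand of the gene, with the core in capitals. Nrarp, a target without the core in this window, is shown beside them.
Hes1 (chr16:29883877-29884126, plus strand): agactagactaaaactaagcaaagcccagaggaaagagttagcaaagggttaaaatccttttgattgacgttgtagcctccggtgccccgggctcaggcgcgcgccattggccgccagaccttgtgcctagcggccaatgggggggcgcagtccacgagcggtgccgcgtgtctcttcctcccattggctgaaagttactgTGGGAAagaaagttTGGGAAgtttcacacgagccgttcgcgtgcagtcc
Hey2 (chr10:30718829-30719078, minus strand): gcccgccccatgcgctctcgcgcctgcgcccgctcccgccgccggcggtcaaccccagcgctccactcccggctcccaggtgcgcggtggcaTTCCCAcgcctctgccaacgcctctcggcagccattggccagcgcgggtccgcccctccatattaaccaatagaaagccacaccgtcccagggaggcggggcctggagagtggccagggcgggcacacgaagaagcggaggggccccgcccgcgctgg
Nrarp (chr2:25070520-25070769, plus strand): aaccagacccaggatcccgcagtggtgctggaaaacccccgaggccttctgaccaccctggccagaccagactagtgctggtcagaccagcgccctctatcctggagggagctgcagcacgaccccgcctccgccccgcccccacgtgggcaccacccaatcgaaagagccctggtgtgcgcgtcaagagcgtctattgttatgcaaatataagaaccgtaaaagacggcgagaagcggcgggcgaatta

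At 6 weeks none of the 10 Notch genes was called by edgeR or by DESeq2, beside 1.70% of all genes tested with edgeR. Hey1, Heyl, Hes1 and Nrarp were the 4 of these genes with an unadjusted p under 0.05 in edgeR, beside 1584 of the 12353 tested genes. The median log2 fold change of the 10 genes was 0.27, against 0.02 over all tested genes. Markers of macrophages also moved with genotype at this age, since their summed normalized counts were 995 to 2586 in Ercc1Δ/- and 802 to 983 in WT mice and 1 of the 9 tested markers was called higher, beside 0.567% of all tested genes. They were higher in Ercc1Δ/- mice at 22 weeks too, with 2235 to 4090 against 1032 to 1541 on AL and 1517 to 4580 against 684 to 1285 on DR. At 6 weeks the 10 endothelial markers had a median log2 fold change of 0.28, with 8 above 0 and none called. The 7 tested cardiac muscle markers had a median of 1.33 with none called, and the 10 smooth muscle markers one of -0.35. The part of these cell types in the values of the Notch genes was not tested.

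Hes1, a repressor of differentiation genes on the plus strand at chr16:29882134-29886643, had 110.2, 58.7, 40.5, 55.1 and 32.9 normalized counts in Ercc1Δ/- mice and 37.8, 29.5, 20.1, 40.0 and 37.8 in WT mice at 6 weeks. Mouse 002 had the highest value, and 4 of 5 Ercc1Δ/- mice were above all WT mice. The log2 fold change was 0.83 (SE 0.26, edgeR adjusted p = 0.12), and without mouse 002 it was 0.42, adjusted p = 0.43. Nrarp, a feedback inhibitor of the pathway on the plus strand at chr2:25070770-25073351, had 27.3, 34.4, 29.2, 14.6 and 42.2 in Ercc1Δ/- mice and 17.4, 18.5, 8.04, 2.85 and 17.1 in WT mice. Again 4 of 5 Ercc1Δ/- mice were above all WT mice, and the log2 fold change was 0.92 (SE 0.32, edgeR adjusted p = 0.18). Gm38287, an antisense gene that shares 2051 of the exon bases of Nrarp, had at most 2 counts in any mouse, and reads of both could not be told apart if strand was not used in counting. The WT values rest on few reads, with as few as 1 raw count of Nrarp and 5 of Hes1 in a mouse, and without mouse 023 Nrarp was called (1.14, adjusted p = 0.046).

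Heyl, on the plus strand at chr4:123127349-123143682, is a target known from smooth muscle and had the most counts of the 10 genes. At 6 weeks it had 1082, 1632, 1735, 854 and 842 normalized counts in Ercc1Δ/- mice and 792, 938, 719, 893 and 969 in WT mice. Mice 008 and 015 were far above the others and mice 023 and 027 lay within the WT range (log2 fold change 0.51, SE 0.19, edgeR adjusted p = 0.22). Hey1, a target active in endothelium and smooth muscle on the minus strand at chr3:8726956-8732385, had 38.0, 58.7, 45.4, 38.3 and 56.3 and 26.4, 18.5, 40.2, 22.8 and 42.3 normalized counts in Ercc1Δ/- and WT mice of 6 weeks. Of the Ercc1Δ/- mice 3 were above all WT mice, and the log2 fold change of 0.62 (SE 0.26) was not called (edgeR adjusted p = 0.30), nor was that without mouse 024 (1.00, adjusted p = 0.094). Hey2, on the minus strand at chr10:30708350-30718828 and the partner of Hey1 in arterial development, had a log2 fold change of 0.01 with a 95% confidence interval of -0.23 to 0.26.

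At 22 weeks on AL, none of the 10 genes was called by edgeR or by DESeq2, beside 12.0% of all genes tested with edgeR. Notch2 and Hey2 had an unadjusted p under 0.05 in edgeR, as did 3220 of the 12353 tested genes. The 95% confidence intervals of all 10 lay within a 2-fold change in either direction. Heyl had 846, 1059, 1027 and 849 normalized counts in Ercc1Δ/- mice and 922, 1150.1, 1093 and 1292 in WT mice (log2 fold change -0.25, 95% confidence interval -0.69 to 0.20). Hey2 had 312, 303, 223 and 296 and 374, 366, 278 and 331 (log2 fold change -0.28, SE 0.13, edgeR adjusted p = 0.18). Hes1, Hey1 and Nrarp had log2 fold changes of -0.09, 0.18 and -0.21, and their groups overlapped.

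On DR, Hey2 had 254, 370.0, 247, 371 and 236 normalized counts in Ercc1Δ/- mice and 352, 374, 343, 340.5 and 349.8 in WT mice. The WT values lay close together, while 3 Ercc1Δ/- mice lay below all of them and the other 2 among them. The log2 fold change was -0.27 (SE 0.11) and was not called (edgeR adjusted p = 0.12). Heyl had a log2 fold change of 0.00 with a 95% confidence interval of -0.35 to 0.35, with mouse 016 at 1245 and the other Ercc1Δ/- mice at 621 to 811. For Hes1, Hey1 and Nrarp the log2 fold changes were 0.04, -0.14 and 0.42.

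**Figure D3:**
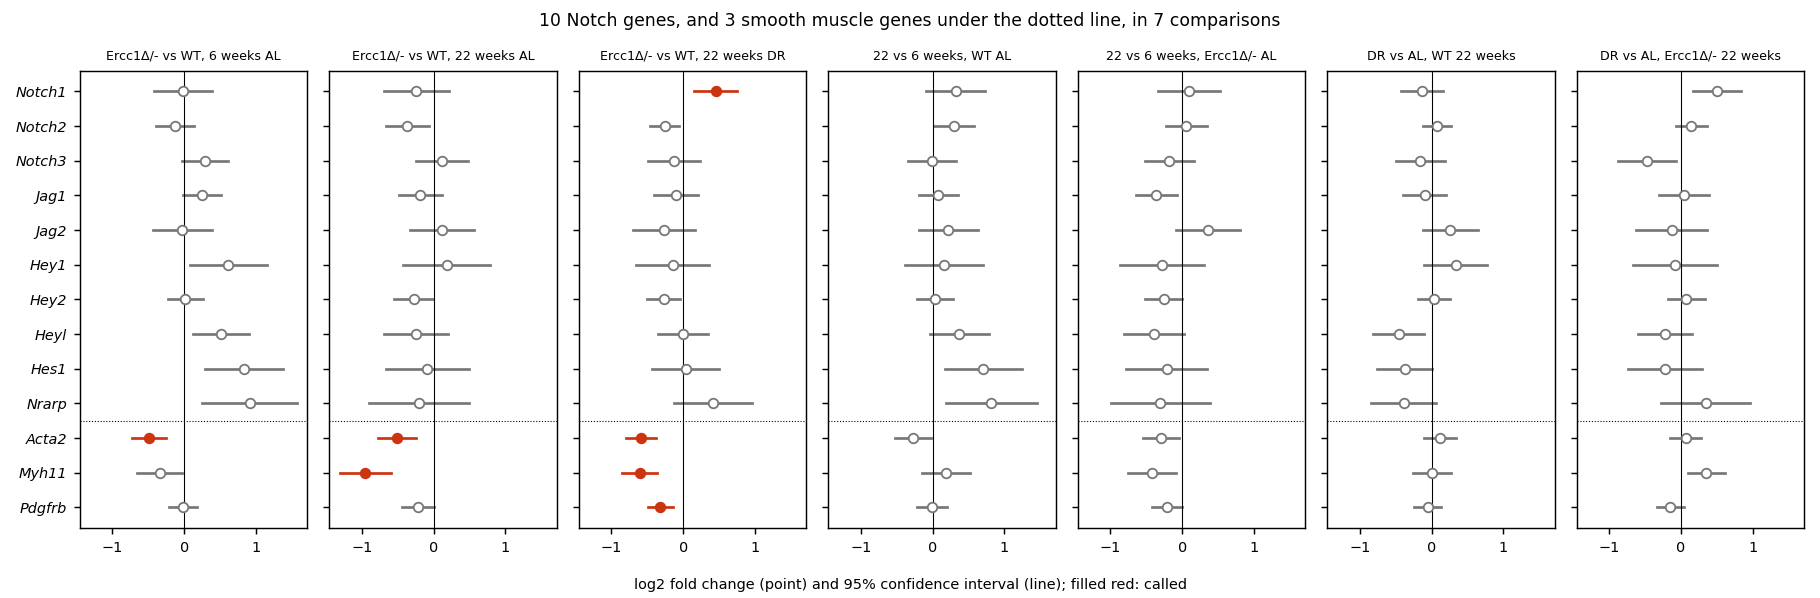
Log2 fold changes (points) with 95% confidence intervals (lines) of the 10 Notch genes and, under the dotted line, of Acta2, Myh11 and Pdgfrb in 7 comparisons, with filled red points for called genes. Among the Notch genes only Notch1 on DR is filled, at 0.45, while Acta2 is filled in all 3 genotype comparisons at -0.49, -0.52 and -0.59.

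Acta2, Myh11 and Pdgfrb are smooth muscle genes that have been described as targets of Notch signals. Acta2, the smooth muscle actin, was lower in Ercc1Δ/- mice at 6 weeks (log2 fold change -0.49, SE 0.11, edgeR adjusted p = 0.026), at 22 weeks on AL (-0.52, SE 0.13, adjusted p = 0.0093) and on DR (-0.59, SE 0.10, adjusted p = 2.5e-04). Its values at 22 weeks on AL were 17734, 19361, 25736 and 24432 normalized counts in Ercc1Δ/- mice and 35642, 30245, 35357 and 27812 in WT mice, which did not overlap. Such a separation was shown by 18.6% of all tested genes in this comparison, 9.63% in this direction. The call of Acta2 at 6 weeks was lost without any of 5 mice, 002, 009, 011, 015 and 019 (adjusted p of up to 0.085), without the sex term and with only these groups in the fit, and the call at 22 weeks on AL without mouse 018 (adjusted p = 0.052). Myh11, the smooth muscle myosin heavy chain, fell by 0.96 on the log2 scale at 22 weeks on AL (SE 0.17, edgeR adjusted p = 7.0e-04) and by 0.61 on DR (SE 0.12, adjusted p = 0.0013). Pdgfrb, a growth factor receptor of mural cells, was called on DR alone (-0.32, SE 0.09, edgeR adjusted p = 0.013), and not when mouse 003 was added or the samples were thinned (adjusted p of 0.063 and 0.065).

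The smooth muscle marker list as a whole moved with genotype. Of its 10 genes 2, 8 and 9 were called lower in Ercc1Δ/- mice at 6 weeks, at 22 weeks on AL and on DR, and none higher. Of all tested genes 1.13%, 6.16% and 7.03% were called lower in these comparisons. Per 1000 counts of these markers, a scale chosen after seeing the data, Notch3 had 1.08 to 1.56 normalized counts in WT and 1.49 to 2.88 in Ercc1Δ/- mice at 22 weeks on AL. Heyl had 6.09 to 10.1 and 8.33 to 14.1 on that scale, and Hey2 had 1.83 to 2.70 and 2.17 to 4.66. The group means of all 3 were thus higher in Ercc1Δ/- mice per marker count at 22 weeks on AL, while the groups overlapped. At 6 weeks Notch3 had 1.23 to 1.51 in WT and 1.54 to 2.97 in Ercc1Δ/- mice, Heyl 5.52 to 7.13 and 8.22 to 14.8, and Hey2 2.10 to 3.07 and 2.51 to 3.69. There the genotypes did not overlap in Notch3 and Heyl, and the share of all genes separated on this scale was not computed. On DR all 3 overlapped. Notch3 had 0.771 to 1.53 in WT and 1.25 to 2.39 in Ercc1Δ/- mice on DR, Heyl 4.00 to 7.26 and 6.29 to 12.2, and Hey2 2.21 to 2.62 and 2.39 to 3.95. The denominator of these ratios holds genes that were themselves called lower, and the ratios were not tested.

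With age, from 6 to 22 weeks on AL, none of the 10 genes was called in WT mice, beside 0.235% of all genes tested with edgeR, or in Ercc1Δ/- mice, beside 4.69%, and DESeq2 called none in either. Unadjusted p-values under 0.05 in edgeR were found for 3 genes in WT mice (Notch2, Hes1 and Nrarp) and for 1 in Ercc1Δ/- mice (Jag1). Of the 12353 tested genes, 1067 had such a p in WT and 2198 in Ercc1Δ/- mice. In WT mice 2 targets did not overlap between the ages, where 3.85% of all tested genes did not. Hes1 had 57.2, 67.2, 46.1 and 53.5 normalized counts at 22 weeks against 20.1 to 40.0 at 6 weeks (log2 fold change 0.71, SE 0.26, edgeR adjusted p = 0.38). Nrarp had 20.4, 34.5, 24.8 and 25.1 against 2.85 to 18.5 (log2 fold change 0.82, SE 0.31, edgeR adjusted p = 0.40). In Ercc1Δ/- mice both genes overlapped between the ages, with log2 fold changes of -0.22 and -0.30. The lowest Nrarp values at 6 weeks came from mice 011 and 019, which were also the shallowest WT samples of that age, with 2 and 1 raw counts of Nrarp, and the lowest Hes1 value from mouse 011.

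The test of whether the genotype difference changed between the ages was passed by none of the 10 genes in edgeR, beside 0.842% of all genes tested with edgeR. DESeq2 called none either, but it gave no adjusted p for Hey1 and Nrarp and so no verdict on them. For 9 of the 10 the estimate was below 0, with Jag2 as the exception. The median estimate was -0.36 for the 10 genes and 0.01 over all tested genes. Of the 10 smooth muscle markers 9 were below 0 as well, while 8 of the 9 tested macrophage markers were above 0. Jag1, Heyl, Hes1 and Nrarp had an unadjusted p under 0.05 in edgeR, beside 1409 of the 12353 tested genes. Without mouse 002 the estimate of Hes1 was -0.59, adjusted p = 0.44. In all mice, the estimates of Nrarp, Hes1 and Heyl were -1.12 (SE 0.46), -0.92 (SE 0.38) and -0.76 (SE 0.28) on the log2 scale, with edgeR adjusted p of 0.35, 0.35 and 0.29. They share the 6-week mice with the genotype comparison at 6 weeks.

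DR changed none of the 10 genes by the threshold, in WT mice beside 1.28% and in Ercc1Δ/- mice beside 1.64% of all genes tested with edgeR, and DESeq2 called none. Unadjusted p-values under 0.05 in edgeR were found for Heyl in WT mice and for Notch1 and Notch3 in Ercc1Δ/- mice. Of the 12353 tested genes, 1581 had such a p in WT and 1853 in Ercc1Δ/- mice. Heyl had 974, 679, 805, 760.1 and 821 normalized counts in WT mice on DR, where 4 of 5 lay below all WT mice on AL (log2 fold change -0.46, SE 0.17, edgeR adjusted p = 0.24). In Ercc1Δ/- mice 4 of 5 on DR also had less Heyl than every mouse on AL, and mouse 016 had more (log2 fold change -0.23, SE 0.18). Notch3 was lower than in all AL mice in 4 of 5 Ercc1Δ/- mice on DR, the exception being mouse 029 (log2 fold change -0.48, SE 0.19, edgeR adjusted p = 0.23). None of the 10 genes passed the test of genotype by diet in edgeR or DESeq2, beside 0.0971% of all genes tested with edgeR. Notch1 had an unadjusted p under 0.05 in edgeR, as did 1077 of the 12353 tested genes.

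A list of 64 further Notch pathway genes was examined, of which 53 passed the filter and 11 did not. Among the latter, Hes3, Hes5 and Helt had no count in any of the 28 samples. In Ercc1Δ/- against WT mice, 1 of the 53 was called at 6 weeks, 3 at 22 weeks on AL and 7 on DR. These shares were 1.89%, 5.66% and 13.2%, beside 1.70%, 12.0% and 13.0% of all tested genes. With age in Ercc1Δ/- mice 2 of the 53 were called, or 3.77% beside 4.69%, and with diet in Ercc1Δ/- mice 1, or 1.89% beside 1.64%.

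Of the 3 receptors and canonical ligands tested outside the 10 genes (Notch4, Dll1 and Dll4), Notch4 was called. Notch4, an endothelial receptor, had 104, 134, 119.9, 117 and 164 normalized counts in Ercc1Δ/- mice and 59.5, 59.5, 89.2, 57.5 and 40.1 in WT mice on DR, with no overlap (log2 fold change 1.07, SE 0.19, edgeR adjusted p = 3.2e-04). In this comparison 3.08% of all tested genes were separated in this direction. Egfl7, a secreted endothelial protein that can bind Notch receptors, was also higher on DR (log2 fold change 0.72, SE 0.15, edgeR adjusted p = 0.0013). On DR both differed in the direction of the endothelial markers described for Notch1, and their part in these differences was not tested. At 22 weeks on AL, where the summed markers overlapped, Notch4 had 105 ± 35.8 (SD, n = 4) in Ercc1Δ/- and 70.5 ± 7.87 (SD, n = 4) in WT mice and was not called (log2 fold change 0.62, SE 0.33, edgeR adjusted p = 0.26). Mfap5, a microfibril protein and non-canonical ligand, was higher in Ercc1Δ/- mice of 6 weeks (log2 fold change 0.45, SE 0.11, edgeR adjusted p = 0.040), a call lost without any of 8 of the 10 mice (002, 008, 009, 011, 019, 023, 024 and 027), with mouse 003 added, with only the compared groups in the fit and in the thinned samples (adjusted p of up to 0.14). In Ercc1Δ/- mice it fell to 0.435 of its 6-week level by 22 weeks (95% confidence interval 0.364 to 0.520, edgeR adjusted p = 1.5e-06).

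Of the 16 genes of the nuclear complex and its repressors, Rbpj, the DNA-binding partner of the receptors, was lower in Ercc1Δ/- mice on DR. Its values were 122, 169, 175, 219.6 and 133 normalized counts in Ercc1Δ/- mice and 282, 237, 233, 222 and 204 in WT mice, and the groups overlapped in that mouse 022 lay above the lowest WT mouse (log2 fold change -0.51, SE 0.14, edgeR adjusted p = 0.012). At 22 weeks on AL the log2 fold change of Rbpj was 0.02 (95% confidence interval -0.24 to 0.28). The test of genotype by diet was passed by none of these 16 genes, Rbpj among them, beside 0.0971% of all tested genes. The call of Rbpj on DR was lost without any of the mice 006, 007 and 029 (adjusted p of up to 0.054) and after thinning (-0.33, adjusted p = 0.25). Ctbp1, a corepressor, was lower on DR (log2 fold change -0.38, SE 0.07, edgeR adjusted p = 9.5e-04) and Cir1, a corepressor that binds RBPJ, higher (0.45, SE 0.12, adjusted p = 0.012, and 0.086 after thinning).

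Tle1, a corepressor of the Groucho family that acts with Hes and Hey proteins, was lower in Ercc1Δ/- mice at 22 weeks on AL. It had 205, 214, 204 and 234 normalized counts against 304, 324, 373 and 353 in WT mice (log2 fold change -0.68, SE 0.12, edgeR adjusted p = 7.0e-04). On DR the Ercc1Δ/- mice had 296, 370.0, 326, 262 and 314, all above the Ercc1Δ/- mice on AL (log2 fold change 0.53, SE 0.11, edgeR adjusted p = 0.010, and 0.051 with only these groups in the fit). Of all tested genes, 2.00% separated the diets in this direction in Ercc1Δ/- mice. The test of genotype by diet was not passed for Tle1 (log2 difference 0.57, SE 0.14, edgeR adjusted p = 0.15). Between 6 and 22 weeks in Ercc1Δ/- mice Tle1 fell by 0.43 on the log2 scale (edgeR adjusted p = 0.036), a call lost without any of 6 of the 9 mice (002, 004, 005, 008, 013 and 023; adjusted p of up to 0.14), with mouse 003 added, with only these groups in the fit and after thinning. Spen, a corepressor recruited by RBPJ, was lower at 22 weeks on AL (-0.64, SE 0.16, edgeR adjusted p = 0.011, and 0.057 after thinning and 0.090 with mouse 003 added). The other called genes were Ep300 at 22 weeks on AL and Kat2b and Dtx4 on DR. The call of Kat2b was lost without any of the mice 006, 007, 010, 014, 016, 017 and 022 and under 5 other settings (adjusted p of up to 0.18), and that of Dtx4 without any of the mice 006, 007, 010, 022, 028 and 029 (adjusted p of up to 0.10) and after thinning (0.43, adjusted p = 0.36). By this test no other gene of the list was called in any of the 9 comparisons.

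**Figure D4:**
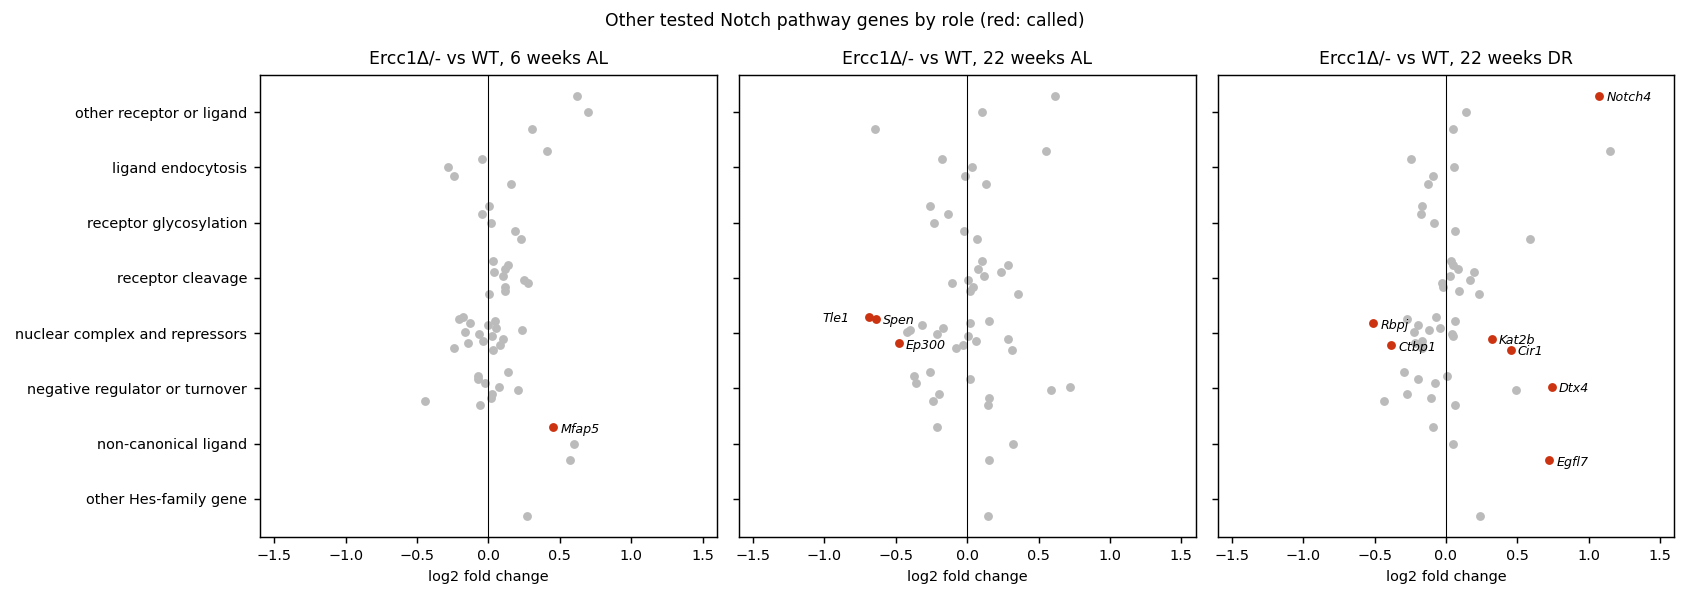
Log2 fold changes (horizontal axis) of the 53 tested genes of the wider Notch pathway in Ercc1Δ/- against WT mice, in rows by role, with called genes in red and named. The called genes number 1 at 6 weeks, 3 at 22 weeks on AL and 7 on DR, of which Notch4 at 1.07 lies farthest from 0.

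Across the 28 samples, the tested genes whose log2 normalized counts followed Notch1 most closely were Ece1 (Spearman's rho 0.81), Cmip (0.79) and L1cam (0.77). These are descriptions across samples that include all 6 groups.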

How the data were processed

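RNA of the aortic arch was isolated after perfusion with PBS and sequenced as paired-end libraries with unique molecular identifiers (UMIs). The authors aligned reads with STAR 2.7.10a to GRCm39, removed duplicates with UMI-tools 1.1.2 and deposited raw counts per gene from HTSeq 2.0.2, taken over whole gene bodies with the Ensembl annotation. Unspliced RNA thus adds reads to genes with long introns, and whether strand was used in counting is not given in the sources used here. Rows that name no gene were left out of all totals. In each sample they came to 7.27 to 10.1% (no feature), 1.40 to 1.82% (ambiguous) and 3.66 to 7.06% (not unique) of all counts of the sample, these rows included.

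Totals on genes were 921167 to 9616382 (median 3256708), and TMM factors 0.93 to 1.07. Symbols, coordinates and sequences came from GENCODE M39 on the same build, which named 56017 of 56748 genes. Genes needed over 10 reads in over 10 of the 28 samples to be tested. edgeR 4.0.16 (R 4.3.3) fitted group and sex in the 18 AL samples (genotype, age and their interaction) and in the 18 samples of 22 weeks (diet, genotype on DR and their interaction). The quasi-likelihood F test with Benjamini-Hochberg adjustment over all tested genes gave the calls, at a change of 1.2-fold or more with an adjusted p up to 0.05, or at that adjusted p alone for interactions. Standard errors are the log2 fold change over the square root of F. Both fits share the 8 AL mice of 22 weeks. Scripts were tested on simulated data. The sequence of 1 further promoter is not reported here.

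Alternatives were RLE size factors, DESeq2 1.42.0, no filter, mouse 003 added, no sex term, other samples in the fit, thinning to 921167 counts and leaving out each mouse. Scales per summed marker counts were added after seeing the data. Named were all 10 genes, the 8 other pathway genes with the smallest p among those called in any comparison (Ep300, Kat2b and Dtx4 fell outside), Acta2, Myh11 and Pdgfrb, and the 3 genes most like a called member. Members of the endothelial, smooth muscle and macrophage marker lists were named where called. The members and lists were chosen with earlier results of these data known.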

Additional observations from a re-analysis of the deposited data

Results flagged for a closer look

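A mouse far from the rest of its group was found in 2 of 60 sets of 4 or 5 mice (10 genes in 6 groups), where chance alone gives about 1 in 20, or 3. Notch3 had 236 normalized counts in mouse 029 of the Ercc1Δ/- group on DR, from 124 raw counts, while the other 4 mice had 117 to 142. The gap was 0.795 of the group's range, above the 95% limit of Dixon's test. Jag1 had 170 normalized counts in mouse 013 of the Ercc1Δ/- group of 22 weeks on AL, from 61 raw counts, while the other 3 mice had 202 to 207, a gap of 0.864 of the range, also above that limit.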

How the results depend on the processing

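Of the 10 Notch genes, the number called on DR between the genotypes was 1 and became 2 without a filter on low counts, 2 after thinning, 0 without the sex term and 0 with all 6 groups in the fit, and 0 to 2 when a mouse was left out. At 22 weeks on AL the number was 0 and became 1 without the filter, and 0 to 1 when a mouse was left out, as it was at 6 weeks. The cause was not tested. Per summed endothelial marker counts, the log2 ratio of the mean Notch1 levels on DR turned from 0.46 to -0.11. That denominator holds markers that were themselves called higher on DR, and the ratio was not tested. In the other comparisons no setting changed the number, which was 0. Over the members and the other genes named, 1141 of 1187 values with a mouse left out and 825 of 851 under other settings stayed on the same side of the threshold, 43 and 23 lost a call and 3 and 3 gained one. The sign changed in 57 and 24 of them, in each case for a gene that was not called in that comparison. Thinning tested 9619 genes. Counts of calls over all genes that moved by more than 1.5 times were, for genotype, 210 at 6 weeks (378 with DESeq2, 121 with only the compared groups), 1487 at 22 weeks on AL and 1605 on DR (671 and 931 after thinning). For age they were 29 in WT mice (106 with DESeq2, 70 without the filter, 10 after thinning), 579 in Ercc1Δ/- mice (311 after thinning) and 104 for the interaction (197 with DESeq2, 48 after thinning). For diet they were 158 in WT mice (307 without the filter, 99 with mouse 003, 66 with all groups, 55 without the sex term, 59 after thinning), 202 in Ercc1Δ/- mice (348 with DESeq2, 101 with mouse 003, 90 with only the compared groups) and 12 for the interaction (43 with DESeq2, 39 without the filter, 5 with all groups, 3 with mouse 003, 2 without the sex term, 1 after thinning). Fits with only the compared groups were not run for the interactions, which need 4 groups. No paired analysis was possible because the labels give no litter and each mouse has a sample number of its own, so that no number is shared between groups. Depth limits the genes with few reads, among them Nrarp, Hey1 and Hes1 with 1 to 75, 6 to 114 and 5 to 146 raw counts per mouse.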

Other observations

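Mouse 003, the WT mouse of 22 weeks on AL that was left out, had 209 normalized counts of Hes1 from 21 raw counts, 249 of Notch1 and 788 of Heyl. The other 4 WT mice of that group had 46.1 to 67.2 normalized counts of Hes1, 154 to 219 of Notch1 and 922 to 1292 of Heyl.

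For 2 members outside the naming rule, chosen after their values were seen, the most similar genes across the 28 samples were Synpo (Spearman's rho 0.80), Gja4 (0.77) and Pcdhgc3 (0.76) for Heyl, and Ccm2l (0.82), Rai14 (0.78) and Tie1 (0.77) for Nrarp. Synpo encodes an actin-associated protein and is not the smooth muscle marker Synpo2. Gja4 encodes a connexin of arterial endothelium, and Tie1 an endothelial receptor that stood among the endothelial markers counted here.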
